A study of Mus musculus with 6 samples.

Results

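The TNF superfamily was described in RM-1 cells, a mouse prostate cancer line, that carried either a lentivirus for Bhlhe22 overexpression (Bhlhe22 cells) or a blank vector lentivirus (vector cells), with 3 libraries each. Both groups had been through lentiviral delivery, and the labels do not say whether either line was a clone or a pool. Nor do they say that the 3 libraries of a group came from separate cultures. The p-values therefore measure only the spread between these samples, which may be technical. Members were the protein-coding genes of the deposited table named Tnfsf or Tnfrsf with a number, plus Tnf, Lta, Ltb, Ltbr, Cd40, Cd40lg, Cd27, Cd70, Fas, Fasl, Eda2r, Edar and Ngfr, 44 of the 55487 genes listed. They comprised 17 ligands and 27 receptors. A filter on low counts left 22 of the 44 for testing, so the counts of calls below do not cover all members.

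Ligands of the TNF superfamily are membrane or secreted trimers that cluster their receptors on the surface of a cell. Receptors with a death domain can recruit caspases and start apoptosis or necroptosis. Most other receptors bind TRAF adaptors directly and signal to NF-kB and to the stress kinase JNK, and decoy receptors bind ligand without passing on a death signal. In bone, the ligand encoded by Tnfsf11 (RANKL) drives osteoclast formation through Tnfrsf11a (RANK), and Tnfrsf11b (osteoprotegerin) captures it.

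Library totals ran from 15464709 to 25129552 counts, in which 3 counts corresponded to 0.119 to 0.197 CPM (counts scaled to a common library size). This floor covers counting error only. Bhlhe22 had 0 counts in the 3 vector libraries and 571, 763 and 716 CPM in Bhlhe22 replicates 1, 2 and 3, at least 4533-fold higher when every vector library is set to 3 counts. Bhlhe22 replicate 1 stood apart from the other libraries, with a root mean square distance of 0.51 log2 units to the mean of its 2 fellow replicates, against 0.34 to 0.42 for the other 5. The luminal keratins Krt8 and Krt18 were abundant, while the prostate markers Pbsn, Hoxb13 and Krt5 had 0 counts in all 6 libraries. Krt8 fell from 756 ± 14.4 to 544 ± 34.0 CPM (SD, n = 3, edgeR adjusted p = 0.00473), and its part in the results below was not tested. Krt18 and Epcam, the other tested markers of that list, had log2 fold changes of 0.00 and -0.01 and were not called. Of 7 fibroblast markers 5 were tested, with Pdgfrb higher and Vim and Col1a2 lower. Col1a2 had 9, 12 and 11 counts in vector and 2, 2 and 3 counts in Bhlhe22 libraries. It passed the filter only through the vector libraries, where it was higher, so its call lends no support. Of 13 leukocyte markers 9 had 0 counts in every library, and the 12 other than Cd68 summed to 0.276 to 0.437 CPM in vector and 0.398 to 0.657 CPM in Bhlhe22 libraries. Cd68, the only tested one, was at 42.2, 42.5 and 37.8 CPM in vector and 51.8, 43.6 and 51.9 CPM in Bhlhe22 libraries, without overlap (log2 fold change 0.27, edgeR adjusted p = 0.11), and its part in the results was not tested. In bulk RNA, fewer cells that express a gene and less RNA per cell cannot be told apart.

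Among the 22 tested members, 3 receptors rose in Bhlhe22 cells (Tnfrsf19, Cd40 and Tnfrsf4), 1 receptor fell (Tnfrsf10b) and 18 did not pass the test (edgeR quasi-likelihood test, Benjamini-Hochberg adjusted over all 14663 genes tested, threshold 0.05). That was 18.2% called, beside 19.6% of all genes tested, so the share lay near the background. By direction it was 13.6% higher and 4.55% lower, beside 10.4% and 9.28% of all genes. At an unadjusted p under 0.05, 4 members of the 22 were higher and 4 lower, as were 2579 and 2347 of all 14663 genes. The median log2 fold change of the members was -0.04, and 0.01 over all genes. In 12 of the 22 the 2 groups did not overlap (54.5%, beside 40.8% of all genes). Among them, Tnfrsf14 passed the filter only through the vector libraries. Without Bhlhe22 replicate 1, 6 members were higher and 3 lower of 23 tested, beside 31.3% of all genes called in that fit (15.7% higher and 15.6% lower). The 4 members called with all libraries were also called in it. Ngfr, among the 6 higher, passed the filter of that fit only through its Bhlhe22 libraries.

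**Figure D1:**
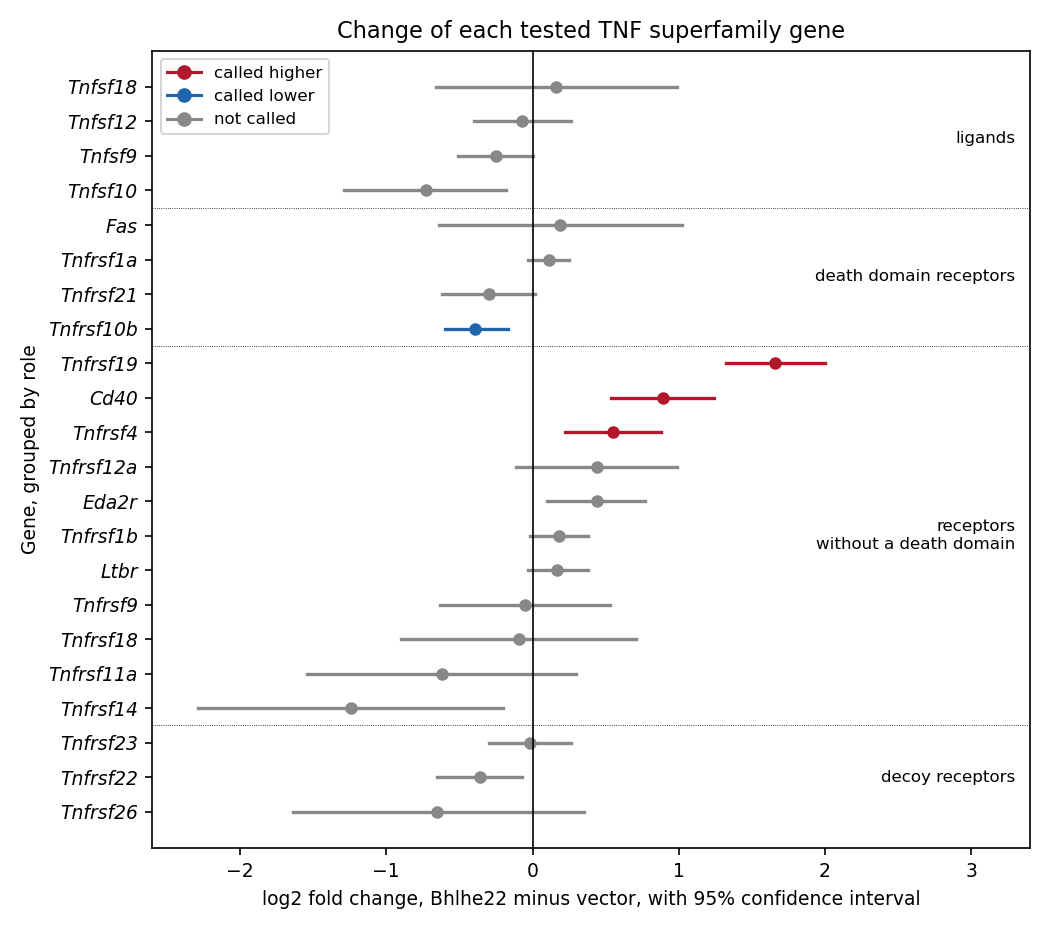
The horizontal axis is the log2 fold change of Bhlhe22 over vector cells, with 95% confidence intervals as bars, for the 22 tested members in rows grouped by role (n = 3 libraries per group). The 3 called increases are among the 11 tested receptors without a death domain, led by Tnfrsf19 at 1.66. The called decrease is the death domain receptor Tnfrsf10b at -0.39.

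Members were ordered by level on the FPKM scale, deposited by the authors, which sets counts against gene length and library size. The median tested protein-coding gene stood at 4.92 FPKM in vector cells. Tnfrsf1a, the main receptor for TNF, was the highest member at 37.9 ± 0.706 FPKM in vector cells (SD, n = 3), followed by the lymphotoxin beta receptor gene Ltbr at 25.7 ± 1.84 FPKM. Tnfrsf10b, Tnfrsf1b, Tnfrsf12a, Tnfrsf23 and the ligand gene Tnfsf9 came next, from 17.2 down to 13.0 FPKM, and each of these overlapped its neighbour in that order. Tnfrsf22, Eda2r, Tnfsf12 and Tnfrsf4 followed at 7.12, 5.46, 3.53 and 2.99 FPKM, each without overlap with the next in vector libraries. The other 11 tested members lay between 0.192 and 1.44 FPKM. In Bhlhe22 cells Tnfrsf1a and Ltbr kept ranks 1 and 2, Tnfrsf10b moved from rank 3 to rank 6, and Tnfrsf19 from rank 20 to rank 15.

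**Figure D2:**
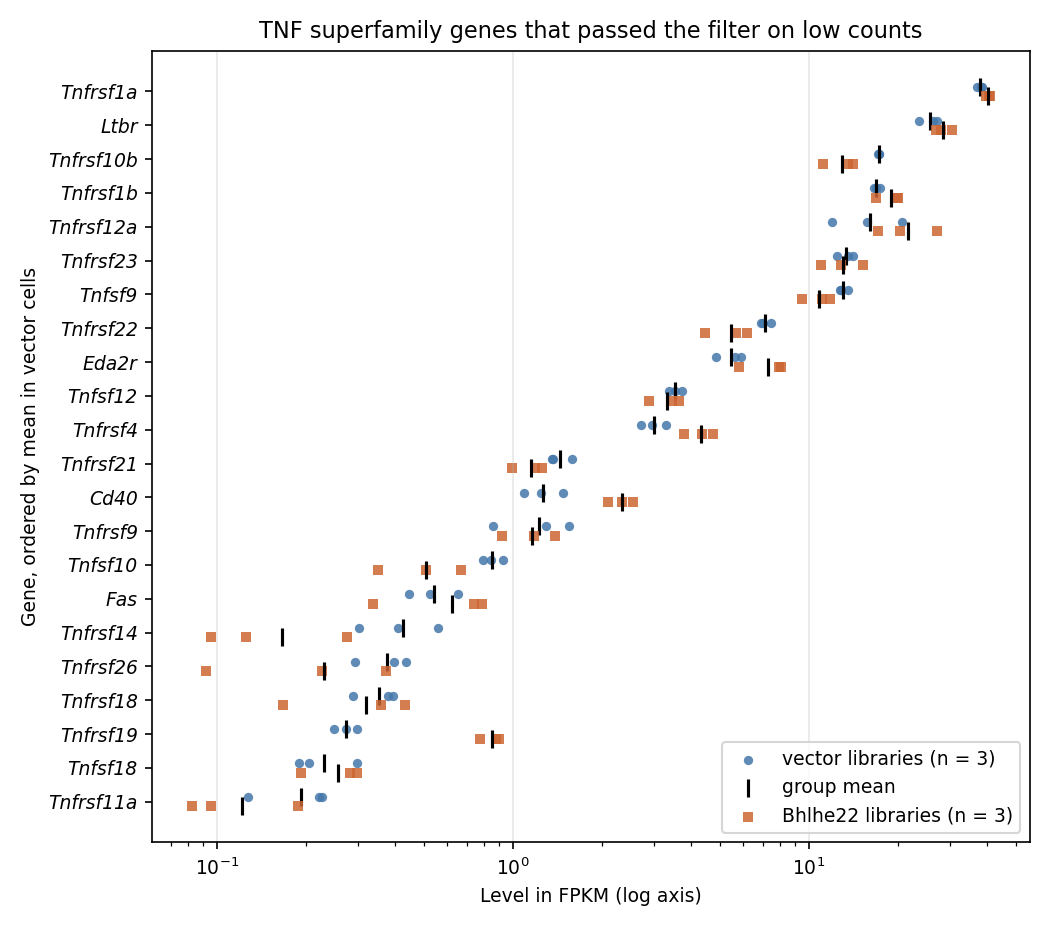
Each point is the FPKM level of 1 tested member in 1 library on a log axis, circles for vector and squares for Bhlhe22 libraries, with a tick at each group mean. Tnfrsf1a is at the top near 40 FPKM in both groups, and the Tnfrsf19 squares (0.776 to 0.899 FPKM) stand clear of its circles (0.248 to 0.297 FPKM).

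Of the 17 ligand genes 4 passed the filter, 0 rose and 0 fell (0% and 0%, beside 10.4% higher and 9.28% lower of all genes). So few tested genes say little about ligands as a class. At an unadjusted p under 0.05 by edgeR 1 was lower, and DESeq2 called the same 1 lower. That gene was Tnfsf10, which encodes TRAIL, a ligand that triggers apoptosis through death receptors. Tnfsf10 was at 4.48, 5.24 and 4.77 CPM in vector replicates 1, 2 and 3 and at 3.87, 2.01 and 2.90 CPM in the Bhlhe22 replicates. Every vector value exceeded every Bhlhe22 value, and the log2 fold change was -0.73 (SE 0.24, 95% interval -1.29 to -0.18, edgeR adjusted p = 0.0711). Tnfsf10 was called by DESeq2 (adjusted p = 0.0384), by limma-voom (0.0498) and by edgeR without Bhlhe22 replicate 1 (-0.97, 0.00927). In the other 5 fits that left out a library it was not called (edgeR adjusted p = 0.14 to 0.198). Nor was it called with the replicate number as a block (0.102).

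Tnfsf9, a ligand that costimulates T cells through Tnfrsf9, was the ligand gene with the highest level per length. It stood at 16.4, 16.3 and 17.4 CPM in vector and 14.6, 12.3 and 15.2 CPM in Bhlhe22 libraries. The groups did not overlap, but the log2 fold change of -0.25 (95% interval -0.51 to 0.00) did not pass the test (edgeR adjusted p = 0.155). Exons of Gm11110 on the opposite strand cover 14.9% of the Tnfsf9 exon length, and no source used here says whether the counting took strand into account.

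Tnfsf12 encodes TWEAK, the ligand of the receptor made from Tnfrsf12a. Its values were 5.59, 5.92 and 5.33 CPM in vector and 5.58, 4.64 and 5.81 CPM in Bhlhe22 libraries, which overlapped (log2 fold change -0.07, 95% interval -0.40 to 0.26). Of its exon length 48.3% is shared with the readthrough gene Tnfsfm13, so its level is uncertain. Tnfsf18, a ligand of the lymphocyte receptor made from Tnfrsf18, was low, between 0.388 and 0.619 CPM over the 6 libraries.

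The other 13 ligand genes did not pass the filter. Tnf itself had 0 counts in all 6 libraries, as did Cd40lg, Cd70, Fasl and Tnfsf14. Lta, Tnfsf13b, Tnfsf8 and Tnfsf11 had 3, 1, 1 and 6 counts summed over the 6 libraries, and Tnfsf4, Tnfsf13, Tnfsf15 and Ltb 13, 26, 16 and 34. Thus the highest tested members, Tnfrsf1a and Ltbr, were measured beside few or no counts of Tnf, Lta and Ltb, the genes of their ligands. For Cd40 and Tnfrsf4, which rose, the ligand genes Cd40lg and Tnfsf4 had 0 and 13 counts in all. Pairs with ligand and receptor genes both tested included Tnfsf10 with Tnfrsf10b, Tnfrsf22 and Tnfrsf23, Tnfsf12 with Tnfrsf12a, Tnfsf9 with Tnfrsf9, and Tnfsf18 with Tnfrsf18.

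Of the 7 death domain receptor genes 4 were tested, 0 rose and 1 fell (edgeR and DESeq2, with 0 higher at an unadjusted p under 0.05 by edgeR). That was 0% higher and 25% lower, beside 10.4% and 9.28% of all genes, on only 4 genes. Tnfrsf10b (ENSMUSG00000022074, GRCm38 chromosome 14, 69767472 to 69784411, plus strand) encodes the apoptosis-inducing TRAIL receptor of the mouse. Its level was 109, 109 and 108 CPM in vector replicates 1, 2 and 3 and 72.5, 87.7 and 89.9 CPM in Bhlhe22 replicates 1, 2 and 3. The vector libraries lay within a narrow range above all Bhlhe22 libraries, of which replicate 1 was the lowest. Tnfrsf10b fell 1.31-fold (-0.39 on the log2 scale, 95% interval -0.60 to -0.17, edgeR adjusted p = 0.0279). Without vector replicate 1, 2 or 3 the log2 fold change was -0.38, -0.38 and -0.39, but the call was lost (edgeR adjusted p = 0.103, 0.0969 and 0.0944). It was also lost without Bhlhe22 replicate 2 (-0.42, 0.0614). Without Bhlhe22 replicate 1 it was called at a log2 fold change of -0.30 (0.00257).

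Tnfrsf1a was at 143, 139 and 144 CPM in vector and 152, 155 and 152 CPM in Bhlhe22 libraries. All 3 Bhlhe22 values were above the vector values, by a small margin that did not pass the test (log2 fold change 0.11, 95% interval -0.03 to 0.25, edgeR adjusted p = 0.24). Tnfrsf21, a death domain receptor studied in neurons and T cells, was at 7.14, 7.18 and 8.27 CPM in vector and 5.32, 6.35 and 6.64 CPM in Bhlhe22 libraries. Its groups did not overlap either, and its log2 fold change was -0.30 (95% interval -0.62 to 0.02, edgeR adjusted p = 0.176). Fas, the classical death receptor, was low at 0.995 to 2.36 CPM with overlapping groups, and Bhlhe22 replicate 3 was the lowest library.

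Ngfr, the p75 neurotrophin receptor gene of neural and some epithelial cells, did not pass the filter. It had 3, 6 and 4 counts in vector and 7, 13 and 24 counts in Bhlhe22 libraries. The groups did not overlap in CPM, on counts too few for the main test. With no filter on low counts it was called higher (log2 fold change 1.70, edgeR adjusted p = 0.041), as without Bhlhe22 replicate 1 (1.89, 0.0139), but not without vector replicate 1, 2 or 3 (adjusted p = 0.111, 0.0692 and 0.114). The fits that left out a library admitted Ngfr only through its Bhlhe22 counts of 13 and 24, the group where it was high. The call without Bhlhe22 replicate 1 therefore lends no support. Tnfrsf25 had 11 counts over all libraries and Edar 0.

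Among 16 receptor genes without a death domain 11 were tested, 3 rose and 0 fell, with a median log2 fold change of 0.18. That was 27.3% higher, beside 10.4% of all genes, and 0% lower, beside 9.28%, on only 11 genes (1 was lower at an unadjusted p under 0.05 by edgeR, and 0 by DESeq2 after adjustment). Tnfrsf19 had the largest change of any tested member. It encodes a receptor, also called TROY, that is known from hair follicles, the nervous system and epithelial stem cells. Its identifier is ENSMUSG00000060548 (chromosome 14, 60963875 to 61046490, minus strand). Its values were 2.38, 1.99 and 2.20 CPM in vector and 6.37, 7.33 and 7.08 CPM in Bhlhe22 libraries. The lowest Bhlhe22 library was well above the highest vector library. The gene rose 3.17-fold (1.66 on the log2 scale, SE 0.14, edgeR adjusted p = 0.000547), from 43, 41 and 47 counts to 97, 142 and 178. It was called with every alternative tool, scaling and filter run and without each library in turn, with log2 fold changes of 1.6 to 1.72 when a library was left out.

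Cd40 (ENSMUSG00000017652, chromosome 2, 165055627 to 165072948, plus strand) encodes a receptor of B cells, antigen-presenting cells and some carcinomas that signals through TRAF adaptors. Cd40 was at 8.14, 5.97 and 6.87 CPM in vector and 14.3, 13.1 and 11.5 CPM in Bhlhe22 libraries. All Bhlhe22 libraries were above all vector libraries, replicate 3 by the least. Cd40 rose 1.85-fold (0.89 on the log2 scale, SE 0.15, edgeR adjusted p = 0.00743), and was called in all alternatives and without each library in turn (0.79 to 1.01).

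Tnfrsf4 (ENSMUSG00000029075, chromosome 4, 156013843 to 156016612, plus strand) encodes OX40, a costimulatory receptor best known on activated T cells. It was at 6.64, 5.48 and 5.94 CPM in vector and 8.99, 9.75 and 7.72 CPM in Bhlhe22 libraries. The groups were separate, with Bhlhe22 replicate 3 nearest to the vector libraries. Tnfrsf4 rose 1.46-fold (0.55 on the log2 scale, SE 0.14, edgeR adjusted p = 0.0338). Without vector replicate 1, 2 or 3 the log2 fold change was 0.62, 0.49 and 0.54, but the call was lost (edgeR adjusted p = 0.0681, 0.121 and 0.11). It was also lost without Bhlhe22 replicate 2 (0.47, 0.109) and with the replicate number as a block (0.55, 0.0712).

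Promoter letters were available for Tnfrsf19 and Tnfrsf4 among the 4 called members, and are shown for these. Basic helix-loop-helix factors as a class bind the E-box, CANNTG. Whether Bhlhe22 binds near either gene was not tested. The 250 bases before the outermost start of Tnfrsf19 (RefSeq, GRCm38.p6, chr14:61046856-61047105, minus strand) and before the start of Tnfrsf4 (chr4:156013445-156013694, plus strand) are written 5′ to 3′ with E-box letters in capitals. Both RefSeq starts lie outside the gene span of the deposited table.
Tnfrsf19: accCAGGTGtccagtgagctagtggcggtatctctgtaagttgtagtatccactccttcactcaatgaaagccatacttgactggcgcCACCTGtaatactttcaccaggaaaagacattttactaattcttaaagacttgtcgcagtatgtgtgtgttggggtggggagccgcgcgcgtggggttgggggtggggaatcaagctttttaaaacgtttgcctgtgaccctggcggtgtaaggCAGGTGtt
Tnfrsf4: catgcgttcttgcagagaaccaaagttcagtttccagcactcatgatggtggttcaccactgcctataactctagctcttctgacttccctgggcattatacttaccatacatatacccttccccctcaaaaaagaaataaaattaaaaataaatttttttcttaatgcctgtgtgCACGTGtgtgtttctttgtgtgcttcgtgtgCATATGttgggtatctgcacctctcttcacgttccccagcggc
The Tnfrsf19 stretch held 3 E-boxes and the Tnfrsf4 stretch 2, of which 1 reads CACGTG and 1 CATATG. E-box letters are common: CANNTG, the same on both strands, was in 66.2% of 32851 RefSeq windows of the same length, and in 14 of 18 windows of tested members (16 genes matched). CACGTG, which is contained in CANNTG, was in 6.02% of all windows and in 4 of those 18. CATATG, also contained in it, was in 3.46% of all and in 1 of the 18. A second RefSeq start of Tnfrsf19, further inside the gene, had 2 E-boxes in its window, of which 1 reads CACGTG. The other CACGTG windows among the 18 were those of Tnfrsf4, Fas and Ltbr, and Fas and Ltbr were not called. A match describes letters in a window and not a bound site.

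**Figure D3:**
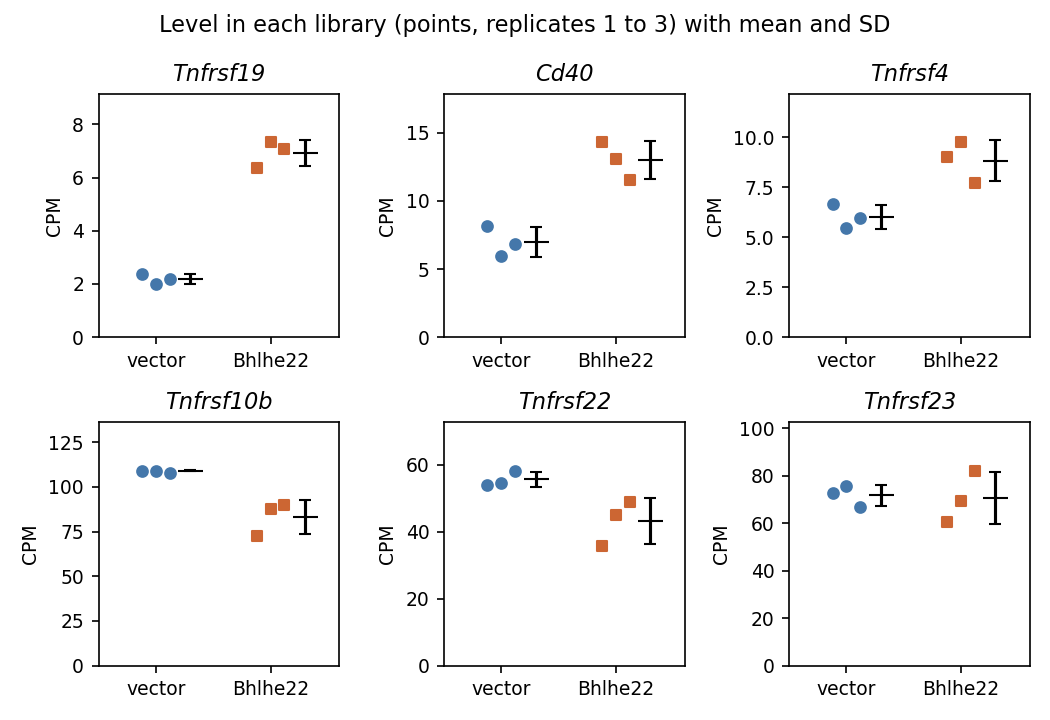
Points give the CPM level (linear axis from 0) of 6 receptor genes in vector and Bhlhe22 replicates 1 to 3, with the mean and SD (n = 3) beside them. Tnfrsf19, Cd40 and Tnfrsf4 are higher in all Bhlhe22 libraries, Tnfrsf10b and Tnfrsf22 are lower in all of them, and the Tnfrsf23 values overlap.

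The other 8 tested receptors without a death domain did not pass the test. Eda2r, a receptor for an isoform of ectodysplasin and a known p53 target gene, was at 39.2, 40.8 and 33.7 CPM in vector and 41.3, 55.8 and 56.5 CPM in Bhlhe22 libraries. Bhlhe22 replicate 1 lay just above the vector range and the other 2 far above it. The log2 fold change of Eda2r was 0.44 (95% interval 0.10 to 0.77, edgeR adjusted p = 0.0731), and 0.56 without that library (0.00261). It was called by DESeq2 (adjusted p = 0.0386). In the other 5 fits that left out a library Eda2r was not called (edgeR adjusted p = 0.13 to 0.217).

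Tnfrsf1b, the second TNF receptor gene, was at 65.7, 64.3 and 67.6 CPM in vector and 67.3, 78.6 and 78.5 CPM in Bhlhe22 libraries. Replicate 1 lay within the vector range and replicates 2 and 3 above it. The log2 fold change was 0.18 (95% interval -0.02 to 0.38, edgeR adjusted p = 0.178), and 0.25 without Bhlhe22 replicate 1 (0.00989). In the other 5 fits that left out a library Tnfrsf1b was not called (edgeR adjusted p = 0.278 to 0.381). Ltbr, which signals to the noncanonical NF-kB pathway, was at 72.2, 64.9 and 74.7 CPM in vector and 85.5, 78.3 and 74.8 CPM in Bhlhe22 libraries. The groups touched without overlap, and the log2 fold change was 0.17 (95% interval -0.03 to 0.38, edgeR adjusted p = 0.221).

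Tnfrsf12a, the TWEAK receptor gene and a growth factor response gene, was the most variable of the abundant members. Its values were 64.6, 49.6 and 85.1 CPM in vector and 115, 85.1 and 71.0 CPM in Bhlhe22 libraries. The groups overlapped, so that a log2 fold change of 0.44 (95% interval -0.11 to 0.99) was not resolved from the spread between replicates (edgeR adjusted p = 0.24). Tnfrsf9, the receptor for the Tnfsf9 ligand, was at 6.59, 3.64 and 5.47 CPM in vector and 4.0, 5.11 and 5.93 CPM in Bhlhe22 libraries, also overlapping (log2 fold change -0.05, 95% interval -0.63 to 0.53).

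Tnfrsf14, a lymphocyte and epithelial receptor gene of the lymphotoxin branch, was low. It had 0.609, 0.825 and 1.12 CPM in vector and 0.197, 0.258 and 0.557 CPM in Bhlhe22 libraries, on 3 to 24 counts per library. The groups did not overlap, and the log2 fold change was -1.24 with a wide 95% interval of -2.29 to -0.20 (edgeR adjusted p = 0.0937). Tnfrsf14 was called without Bhlhe22 replicate 3 (-1.87, 0.0472), the Bhlhe22 library with the most counts. It passed the filter only through the vector libraries, where it was higher, so this call and the lack of overlap lend no support. Tnfrsf11a, the RANK gene, was at 0.525 to 1.41 CPM and Tnfrsf18 at 0.656 to 1.67 CPM, with overlapping groups. Of the receptors that did not pass the filter, Tnfrsf13b and Tnfrsf17, which are B cell receptors, had 0 counts, and Tnfrsf8, Tnfrsf13c and Cd27 had 3, 13 and 37 over all libraries.

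The list of decoy receptor genes was a choice made here, with ligand binding not checked for each. Its 4 genes included 3 tested ones, of which 0 rose and 0 fell (0% and 0%, beside 10.4% and 9.28% of all genes). At an unadjusted p under 0.05 by edgeR 1 was lower, and DESeq2 called the same 1. Tnfrsf22 and Tnfrsf23 encode mouse TRAIL receptors that lack a death domain. They sit with Tnfrsf26 in 1 cluster on chromosome 7, with 16.1 kb between Tnfrsf22 and Tnfrsf23 and 6.08 kb between Tnfrsf26 and Tnfrsf22. Of the 50-base stretches of their transcripts in GENCODE M21, 17.3% of those of Tnfrsf22 also occur in Tnfrsf23, and 18% of those of Tnfrsf23 in Tnfrsf22. Depending on how the authors' counting treated such reads, the values of both are uncertain.

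Tnfrsf22 was at 54.0, 54.6 and 58.2 CPM in vector and 35.7, 45.1 and 48.8 CPM in Bhlhe22 libraries. All Bhlhe22 values were below the vector values, replicate 1 the furthest, with a log2 fold change of -0.36 (95% interval -0.65 to -0.07, edgeR adjusted p = 0.0812). It was called by DESeq2 (adjusted p = 0.0469) and by edgeR without Bhlhe22 replicate 1 (-0.25, 0.0292). In the other 5 fits that left out a library Tnfrsf22 was not called (edgeR adjusted p = 0.0535 to 0.219). Tnfrsf23 was at 72.9, 75.5 and 66.8 CPM in vector and 60.4, 69.4 and 82.1 CPM in Bhlhe22 libraries. These overlapped, with Bhlhe22 replicate 1 lowest and replicate 3 highest of all (log2 fold change -0.02, 95% interval -0.30 to 0.26). Tnfrsf26 was low at 0.525 to 2.43 CPM, and Tnfrsf11b, the osteoprotegerin gene, had 0 counts in all 6 libraries.

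The balance between these TRAIL receptor genes was read within each library, where scaling has no part. The ratio was chosen after the values were seen. Counts of Tnfrsf23 per count of Tnfrsf10b were 0.667, 0.692 and 0.616 in vector and 0.833, 0.791 and 0.913 in Bhlhe22 libraries. The ratio was higher in all 3 Bhlhe22 libraries (log2 difference 0.36, exact two-sided permutation p = 0.1, the smallest that 3 against 3 can give). Tnfrsf22 per Tnfrsf10b was 0.494, 0.5 and 0.537 in vector and 0.493, 0.515 and 0.542 in Bhlhe22 libraries, which overlapped (log2 difference 0.02, exact permutation p = 0.8). Tnfrsf23 per Tnfrsf22 differed by 0.34 on the log2 scale (exact permutation p = 0.1). Of the 5 such ratios computed, none could reach 0.05 with 3 libraries a group. The fifth, Tnfrsf1a per Tnfrsf1b, differed by -0.07 on the log2 scale with overlapping groups (exact permutation p = 0.4).

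Several members lie near other members in the genome, among them 1 called member, Tnfrsf4. Whether other genes lie between them was not examined. Tnfrsf4 and Tnfrsf18 are 9.55 kb apart on chromosome 4. Tnfrsf18 was at 1.11, 1.5 and 1.45 CPM in vector and 0.656, 1.39 and 1.67 CPM in Bhlhe22 libraries (log2 fold change -0.09, 95% interval -0.90 to 0.71), and Gm16008 on the opposite strand covers 27.2% of its exons. Their count ratio per library was 6.0, 3.65 and 4.1 in vector and 13.7, 7.0 and 4.62 in Bhlhe22 libraries, which overlapped (exact permutation p = 0.2, where 0.1 is the smallest that 3 against 3 can give). On chromosome 6, Ltbr and Tnfrsf1a are 35.5 kb apart and both were abundant, while Cd27, 69.6 kb from Ltbr, had 1 to 12 counts per library. On chromosome 17, Tnfsf9 was expressed and the members Cd70 and Tnfsf14, 38.2 and 39.7 kb further along in turn, had 0 counts.

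Genes that act with the family were taken as 6 lists with 63 genes, of which 60 were tested. In Bhlhe22 cells 9 of them rose and 7 fell, while 44 were not called (15% higher and 11.7% lower, beside 10.4% and 9.28% of all genes). Their median log2 fold change was -0.04. Of 21 tested adaptors and ubiquitin enzymes 1 rose and 2 fell (4.76% and 9.52%). Spata2, which brings the deubiquitinase CYLD to the TNF receptor complex, was at 50.1, 49.6 and 48.7 CPM in vector and 73.4, 73.8 and 80.2 CPM in Bhlhe22 libraries. Every Bhlhe22 library was above every vector library. Spata2 rose by 0.62 on the log2 scale (SE 0.07, edgeR adjusted p = 0.00175) and stayed called whichever library was left out. Traf4 (-0.38) and Traf5 (-0.56), adaptors of the TRAF family, fell on the log2 scale with edgeR adjusted p of 0.0142 and 0.0147. Both lost their calls without vector replicate 1 or 3 or Bhlhe22 replicate 2.

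Of 8 death effector genes, all tested, 1 rose and 4 fell, with a median log2 fold change of -0.26 (12.5% higher and 50% lower, beside 10.4% and 9.28% of all genes, whose median was 0.01). Mlkl, the pore-forming effector of necroptosis, was at 166, 171 and 176 CPM in vector and 138, 129 and 136 CPM in Bhlhe22 libraries. It fell by 0.34 on the log2 scale (edgeR adjusted p = 0.0113), while Ripk3, the kinase that activates MLKL, rose by 0.26 (0.028). Casp8, the initiator caspase of death receptors, fell by 0.30 (0.0279), and the executioner gene Casp6 by 0.38 (0.0367). The groups of each of these 4 genes did not overlap, but the changes were small. Casp8, Casp6 and Ripk3 kept their calls in 1 of the 6 fits that each left out 1 library, the one without Bhlhe22 replicate 1. In the other 5 the adjusted p was 0.0612 to 0.104 for Casp8, 0.06 to 0.135 for Casp6 and 0.0647 to 0.116 for Ripk3. Mlkl lost its call without vector replicate 2 or 3 or Bhlhe22 replicate 2 (adjusted p = 0.0539 to 0.0579).

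Among 14 kinase and adaptor genes on the way to NF-kB and JNK, 3 rose and 0 fell (21.4% and 0%, beside 10.4% and 9.28% of all genes). At an unadjusted p under 0.05 by edgeR 1 was lower. Map3k5, the stress kinase ASK1, was at 25.7, 27.3 and 29.0 CPM in vector and 44.6, 52.2 and 50.2 CPM in Bhlhe22 libraries. Its groups were far apart (0.84 on the log2 scale, SE 0.09, edgeR adjusted p = 0.0014), and it was called without each library in turn. Chuk, the IKK-alpha kinase of noncanonical NF-kB signalling, rose by 0.44 (0.0129) and the TAK1-binding gene Tab2 by 0.56 (0.0388). Chuk lost its call without any 1 vector replicate or Bhlhe22 replicate 2 (adjusted p = 0.0509 to 0.0657). Tab2 lost it without any 1 library but Bhlhe22 replicate 1 (0.0697 to 0.138).

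Of 9 NF-kB subunit and inhibitor genes 3 rose and 1 fell (33.3% and 11.1%, beside 10.4% and 9.28% of all genes). The inhibitor gene Nfkbib was at 40.0, 35.2 and 38.0 CPM in vector and 78.5, 67.1 and 61.3 CPM in Bhlhe22 libraries, and rose by 0.87 on the log2 scale (edgeR adjusted p = 0.00245). Nfkbia, the inhibitor induced by NF-kB, fell by 0.42 (0.00524) and differed from Nfkbib in direction. Both inhibitors stayed called whichever library was left out, and opposite-strand genes cover 16.4% of the Nfkbib exons. The subunit genes Relb (0.40, 0.0126) and Rela (0.29, 0.0434) rose by less. Relb lost its call without vector replicate 1 or 3 or Bhlhe22 replicate 2 (adjusted p = 0.0528 to 0.0701), and Rela without any 1 library but Bhlhe22 replicate 1 (0.0968 to 0.152). Of 6 tested shedding enzyme genes 1 rose and 0 fell (16.7% and 0%, beside the same 10.4% and 9.28%). That was Rhbdf2, an adaptor of the TNF-shedding protease ADAM17 (0.39, edgeR adjusted p = 0.0219), whose call was lost without any 1 library but Bhlhe22 replicate 1 (0.0591 to 0.0967). The protease gene Adam17 itself had a log2 fold change of -0.03 (95% interval -0.20 to 0.14). Of the relatives that the naming rule leaves out, Relt and Tnfsfm13 were not called and Eda, the ectodysplasin gene, had a single count, in vector replicate 2.

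**Figure D4:**
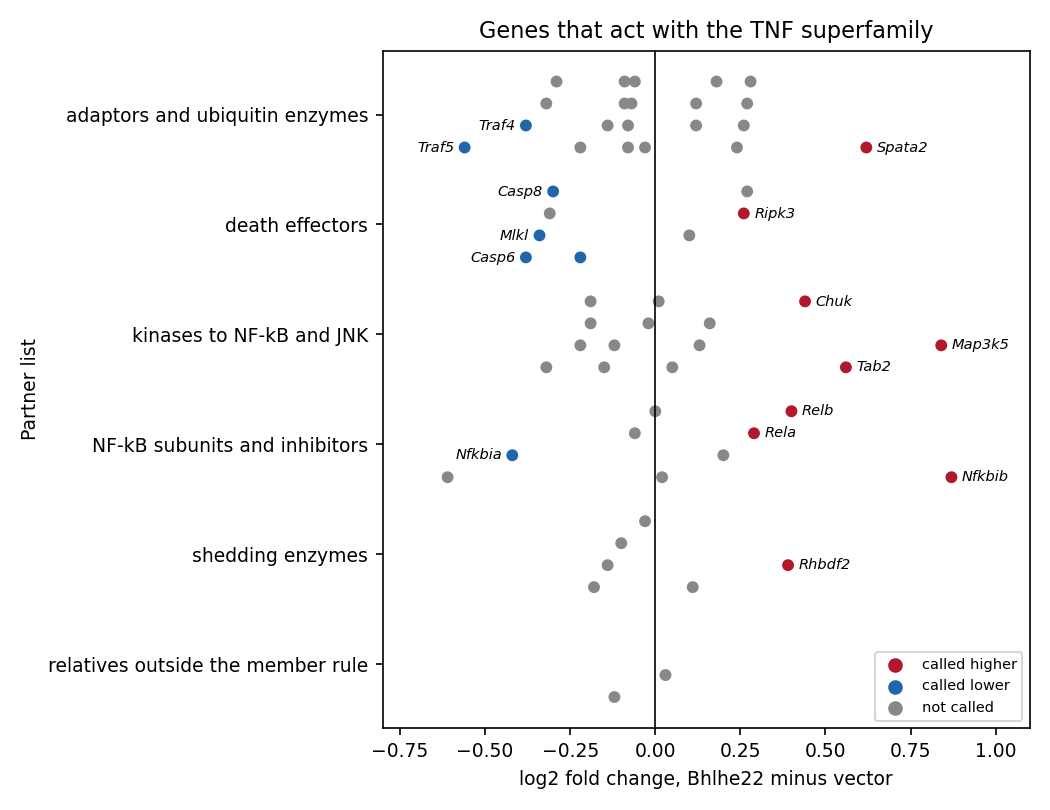
Each point is the log2 fold change (Bhlhe22 minus vector) of 1 of the 60 tested partner genes, in rows by list and spread vertically for legibility, coloured by its call (n = 3 libraries per group), with up to 4 called genes labelled in each list. The largest changes are the increases of Nfkbib and Map3k5, and the called death effectors other than Ripk3 are on the lower side.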

How the data were processed

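RNA-seq was measured in 3 vector and 3 Bhlhe22 samples. The authors deposited whole-number counts per gene, not normalized, and FPKM values in 1 table. Per the submitters' processing notes CASAVA 1.8, HISAT2 2.1.0, StringTie 1.3.4b and edgeR were used on GRCm38. Their roles, the annotation release and the use of strand: not given in the sources used here. Counts were tested with edgeR 4.0.16 (R 4.3.3): TMM scaling, filterByExpr (minimum count 10, minimum total 15), robust quasi-likelihood fit over all 14663 genes, Benjamini-Hochberg at 0.05, no covariate. CPM values use TMM-scaled library totals. On simulated data with 3 samples a group (14451 genes) the fit recovered 18%, 70% and 92% of genes changed 1.5-, 2- and 4-fold, and 6.6% of its calls were false. The simulation changed only 100, 50 and 50 genes at these folds and had no outlying library. In the data 19.6% of genes were called and Bhlhe22 replicate 1 stood apart, so these rates need not hold here. Members, roles and the partner lists were chosen with earlier results of these data known. Values by library are given for members that were called, reached a mean of 5 CPM or had groups that did not overlap. From each partner list up to 4 called genes with the smallest p were named. Some genes of the lists are not reported here. Strand, exon overlap and shared 50-base stretches came from GENCODE M21, whose coordinates matched the deposited ones for all members but Tnfsf15. Promoters came from RefSeq. Alternatives were DESeq2 1.42.0, limma 3.58.1 (voom, and on log2 FPKM with pseudocounts of 1 and 0.1), other scalings and filters, no robust estimation, a replicate block and leaving out each library.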

Additional observations from a re-analysis of the deposited data

How the results depend on the processing

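Counts of calls moved most when a library was left out. Members called higher ranged from 2 to 6 and lower from 0 to 3, partners higher from 3 to 14 and lower from 1 to 11, and all genes higher from 715 to 2345 and lower from 633 to 2337. The highest of each came without Bhlhe22 replicate 1. The number of lower members was 3 with DESeq2 and 2 with limma-voom, against 1. Over all 14663 genes tested, DESeq2 called 1624 lower and limma-voom 1401, against 1361. The number of lower partners was 4 with no filter and 3 with the replicate block, against 7. Over all genes tested, 1156 of 26394 were lower with no filter and 993 of 14663 with the block. The block took no other of these counts past 1.5 times, but Tnfrsf4 (0.55) lost its call under it (edgeR adjusted p = 0.0712), as did Traf4 (0.0515), Casp8 (0.0766), Ripk3 (0.0871), Casp6 (0.0743) and Rela (0.0943). Deviations of same-numbered samples correlated at 0.078, 0.014 and 0.127 over 11086 genes. For differently numbered samples the range was -0.249 to 0.175, which holds these values, so the numbers were not taken to pair the samples. With no filter Casp8, Ripk3, Casp6 and Rela lost their calls (edgeR adjusted p = 0.0543, 0.054, 0.0619 and 0.063). Rela also lost it with library size alone (0.0617), and Rela and Tab2 with limma on FPKM (0.0631 to 0.0671). The causes were not tested. No tested member or named partner turned direction with a call. Tnfrsf19 and Cd40 were called in all 17 alternatives. Tnfrsf14 and Ngfr rest on 3 to 24 counts per library.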
